A study of Mus musculus with 82 samples.

Results

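The 8 genes described here, Klf2, Klf3, Klf6, Btg1, Btg2, Tob1, Cdkn1b and Foxo1, are regulators of T cell quiescence, chosen by name among the 21823 genes shared by the 3 deposited count tables. RNA sequencing measured them in 82 libraries of mouse T cells that recognise ovalbumin, and 71 of these libraries entered the comparisons. OT-II cells are CD4 T cells and OT-I cells are CD8 T cells, each with 1 transgenic receptor for ovalbumin. Both were transferred into the same recipients and sorted from pooled spleen and lymph nodes 4 days after the recipients were given pGal-OVA (pGal, ovalbumin carrying a synthetic glycopolymer), plain ovalbumin (OVA, 5 µg) or saline. The design text gives 5 µg for pGal-OVA as well, while the treatment protocol calls it the molar antigen equivalent of OVA, so an equal amount of antigen cannot be assumed.

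In the therapeutic experiment the recipients had received ovalbumin with complete Freund's adjuvant under the skin a month before the antigen. Each library there is 1 mouse, and the sorted cells were spun down and snap frozen. The libraries labelled OT-II numbered 10 after pGal, 8 after OVA and 7 after saline, and those labelled OT-I numbered 10 after pGal, 10 after OVA and 8 after saline. In the prophylactic experiment wild-type recipients were given antigen 1 day after transfer and no immunization. Each library there pools 3 mice, the sort was made directly into Trizol, and 2 batches (1 and 2) are named. Each prophylactic group had 5 libraries, except OT-II cells after OVA with 4. The strain label is C57BL/6 in the prophylactic experiment and counts upward from library to library in the therapeutic one, and no age of the animals is stated in the labels.

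A resting T cell is held out of the cell cycle by active gene programmes, and several of their components are lost when the antigen receptor fires. FOXO1 is a forkhead factor that is kept out of the nucleus when the kinase AKT is active, and KLF2 is a zinc finger factor that drives genes of lymph node recirculation. BTG1, BTG2 and TOB1 belong to a family that brings the CCR4-NOT deadenylase to messenger RNA and shortens its tail, and p27, the product of Cdkn1b, inhibits cyclin E and CDK2.

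By the GENCODE annotation of GRCm38, all 8 are protein-coding genes. The zinc finger genes lie at chr8:72319033-72321656 (Klf2), chr5:64803388-64832901 (Klf3) and chr13:5861482-5870394 (Klf6). The deadenylation genes lie at chr10:96617006-96622809 (Btg1), chr1:134075170-134079120 (Btg2) and chr11:94211454-94215495 (Tob1), and Cdkn1b and Foxo1 lie at chr6:134920401-134925513 and chr3:52268336-52353221.

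The 250 bases before the RefSeq transcription start are shown for Klf2 and Klf6, the pair that fell after pGal in prophylactic OT-II cells. They are also shown for Btg1 and Btg2, the BTG pair that stood higher in OT-II than in OT-I cells of prophylactic saline recipients. They are RefSeq sequences of GRCm38.p6, on each gene's own strand, at chr8:72318812-72319061 (plus strand), chr13:5861239-5861488 (plus), chr10:96616751-96617000 (plus) and chr1:134079156-134079405 (minus). The Klf2 and Klf6 windows run past the GENCODE starts given above, by which the last bases of each lie inside the gene. Capitals mark matches, on either strand, to 6 motifs: FOXO (TGTTTAC), KLF (CCACCC), CRE (TGACGTCA), E-box (CACGTG), AP-1 (TGANTCA) and CCAAT.
Klf2: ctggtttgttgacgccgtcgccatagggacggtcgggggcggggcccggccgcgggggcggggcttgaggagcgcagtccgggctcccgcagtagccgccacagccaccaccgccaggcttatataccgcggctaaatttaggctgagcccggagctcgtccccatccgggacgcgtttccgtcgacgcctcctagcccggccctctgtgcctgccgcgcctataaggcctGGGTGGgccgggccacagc
Klf6: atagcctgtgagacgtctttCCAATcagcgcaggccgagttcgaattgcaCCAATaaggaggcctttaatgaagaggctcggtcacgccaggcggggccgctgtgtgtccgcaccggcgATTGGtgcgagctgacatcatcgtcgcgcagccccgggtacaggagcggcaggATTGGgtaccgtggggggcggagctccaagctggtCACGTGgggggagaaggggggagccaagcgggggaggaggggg
Btg1: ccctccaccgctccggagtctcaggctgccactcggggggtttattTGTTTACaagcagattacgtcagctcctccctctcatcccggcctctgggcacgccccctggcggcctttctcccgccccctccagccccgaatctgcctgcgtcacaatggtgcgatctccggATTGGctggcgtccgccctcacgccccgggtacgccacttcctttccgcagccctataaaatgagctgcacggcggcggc
Btg2: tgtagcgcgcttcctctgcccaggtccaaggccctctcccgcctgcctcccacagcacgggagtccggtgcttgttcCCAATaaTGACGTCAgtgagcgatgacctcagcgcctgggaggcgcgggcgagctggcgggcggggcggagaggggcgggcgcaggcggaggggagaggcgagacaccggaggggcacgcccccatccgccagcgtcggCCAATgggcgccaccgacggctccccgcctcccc

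Klf2 held 1 KLF match in this window, downstream of its GENCODE start, and its relatives Klf3 and Klf6 held 3 and 0. Of 32841 RefSeq promoter windows of the same length, 28.1% held that motif. The FOXO letters were found in Btg1 alone among the 8 genes (1 match; 3.2% of all windows), the CRE letters in Btg2 alone (1 match; 1.5%) and the E-box in Klf6 alone (1 match; 6.0%). CCAAT was present in 6 of the 8 windows, with 4 matches in Klf6 and 0 in Klf2 and Klf3, against 33.9% of all windows, and the AP-1 letters were in none of the 8 (6.8% of all). The matches did not overlap in the 4 windows shown.

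The tables hold counts estimated per gene, with totals of 22.6 to 62.5 M (mega) counts per therapeutic library and 21.2 to 68.2 M counts per prophylactic one. Every level below is in normalised CPM, counts per M counts after scaling between libraries. CPM is not divided by gene length, so levels are compared between libraries and not between genes. In 11 of the 53 therapeutic libraries Cd4 and Cd8a, which define the CD4 and CD8 lineages, went against the label. These 6 libraries labelled OT-I (Cd4 402 to 1444 CPM, Cd8a at most 2.67 CPM) and 5 labelled OT-II (Cd4 at most 4.22 CPM, Cd8a 832 to 1353 CPM) were left out of the main comparisons, and values with all libraries as labelled are given where they change a call. Among the 42 matching therapeutic libraries, Cd4 was 239.8 to 1385 CPM in OT-II and at most 4.496 CPM in OT-I cells, and Cd8a was at most 11.6 CPM in OT-II and 723 to 1330.0 CPM in OT-I cells. In the prophylactic experiment every library matched, but 7 of the 29 held transcripts of other cells, at 100 CPM or more of the B cell gene Cd79a or, in OT-I cells, of Cd4. The B cell transcripts were highest in pGal 3 of batch 1 and OVA 2 of batch 2 in OT-II cells (5 measured markers summing to 10600 and 18800 CPM, against medians of 224 to 300 CPM in the 3 OT-II groups), and these also held Cd8a at 84.5 and 113 CPM. In OT-I cells Cd4 was at 206 CPM in pGal 2 and 161 CPM in OVA 1 of batch 1, and Cd79a at 314 CPM in saline 1 and 101 CPM in OVA 2 of batch 2. The seventh was OT-II saline 1 of batch 2, with Cd79a at 162 CPM. Matching therapeutic OT-II libraries set apart by the same rule were OVA 2, pGal 2, pGal 3, pGal 8 and saline 7. Their Cd79a was at 111, 113, 116, 109 and 112 CPM, in that order. The 5 measured B cell markers had median sums of 696 to 1110 CPM in the 3 therapeutic OT-II groups. In bulk RNA, fewer cells of a type and less RNA per cell cannot be told apart.

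**Figure D1:**
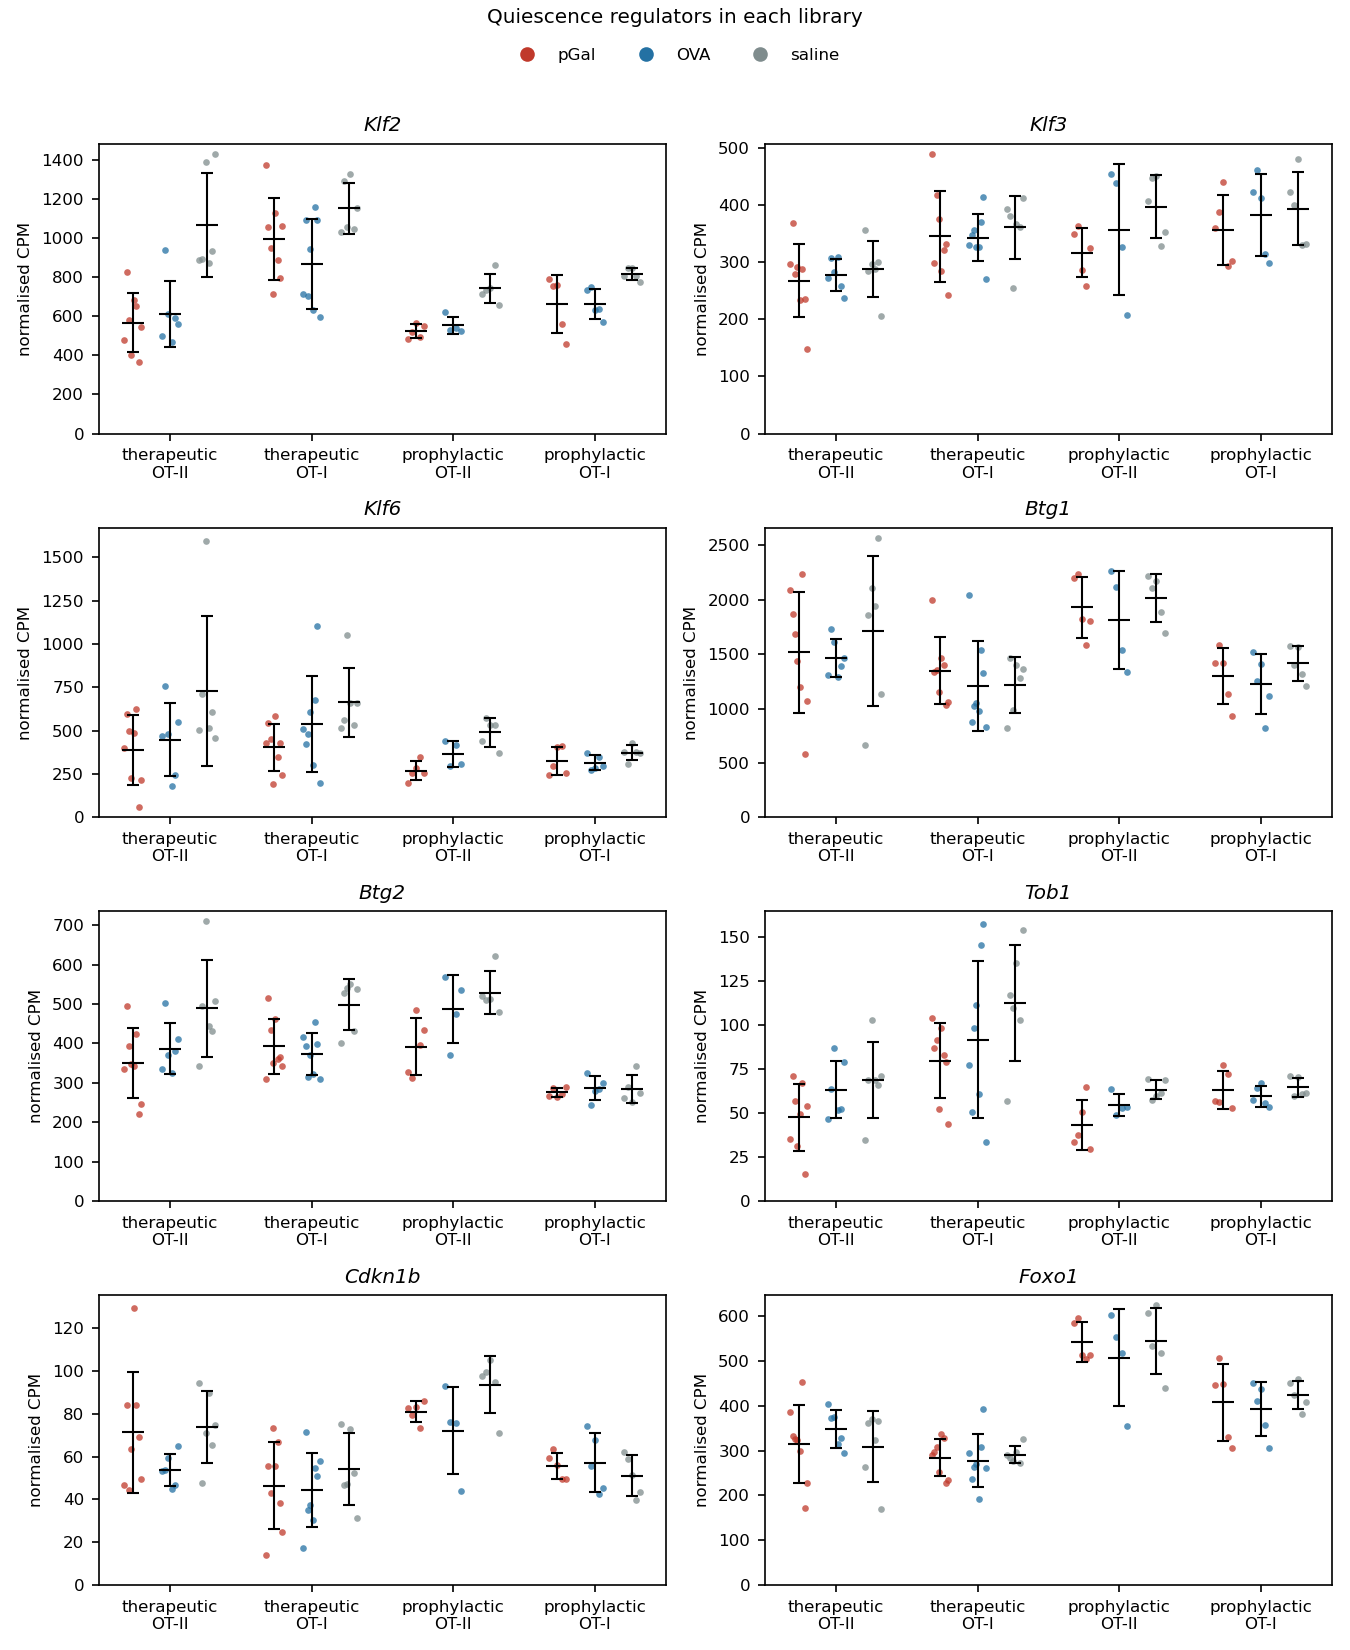
Level of each gene in normalised CPM (y axis, linear) in every library whose Cd4 and Cd8a match its label, by experiment, cell type and treatment (x axis). Points are libraries, and the black bars are the mean and SD. In prophylactic OT-II cells the 5 pGal libraries lie at 484 to 567.9 CPM of Klf2, all below the 5 saline libraries at 656 to 859.8 CPM.

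The first question was whether cells that met antigen 4 days earlier differed from cells of saline recipients. In prophylactic OT-II cells after pGal, Klf2 and Klf6 fell. Klf6 encodes a zinc finger factor that is itself an immediate early gene in many cells. Of the 8 genes, 2 passed the test as lower and 0 as higher, while 5.34% of the 14128 genes tested were called lower and 6.37% higher (edgeR's quasi-likelihood test, Benjamini-Hochberg adjusted p under 0.05 over all genes). All 8 log2 fold changes were below 0, with a median of -0.38 against 0.04 over all genes.

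Klf2 was at 484, 519 and 567.9 CPM in the pGal libraries of batch 1 and at 494 and 551 CPM in those of batch 2, against 712, 736 and 746 CPM in the saline libraries of batch 1 and 859.8 and 656 CPM in those of batch 2. The groups did not overlap, in either batch. The difference was -0.51 ± 0.091 on the log2 scale (SE; n = 5 and 5; edgeR adjusted p = 0.0031), lower in 5 of 5 pGal libraries than in the lowest saline library. It was -0.50 in batch 1 alone (edgeR adjusted p = 0.017) and -0.55 in batch 2 alone, where 2 libraries met 2 and it did not pass (edgeR adjusted p = 0.34).

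Klf6 was at 198, 253 and 283 CPM in the pGal libraries of batch 1 and at 348 and 258 CPM in those of batch 2, against 441, 574 and 531 CPM in the saline libraries of batch 1 and 530.1 and 373 CPM in those of batch 2. Again every pGal library was below every saline library. Klf6 fell by 0.88 on the log2 scale (SE 0.17; n = 5 and 5; edgeR adjusted p = 0.0046), and by 1.09 in batch 1 alone (edgeR adjusted p = 0.0091). In batch 2 alone the difference was -0.59 (edgeR adjusted p = 0.42). Klf3, a repressor of the same family, averaged 317 ± 43.3 CPM after pGal and 397.5 ± 55.3 CPM after saline (SD, n = 5 each), a difference of -0.32 that did not pass (edgeR adjusted p = 0.13). Klf3 passed in batch 1 alone (-0.41; edgeR adjusted p = 0.037) and without OVA 2 of batch 2, a library of neither group that enters the estimate of the spread (-0.32; edgeR adjusted p = 0.033).

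In the deadenylation family, Btg2 averaged 391 ± 72.2 CPM after pGal and 529 ± 54.6 CPM after saline (SD, n = 5 each), a log2 difference of -0.44 (edgeR adjusted p = 0.064). Tob1, whose loss lowers the threshold for T cell activation, averaged 43.4 ± 14.3 CPM after pGal and 63.3 ± 5.44 CPM after saline, a difference of -0.55 (edgeR adjusted p = 0.071). Both groups overlapped, by 1 pGal library in each gene. Both passed when the libraries with transcripts of other cells were left out (Btg2 -0.51, edgeR adjusted p = 0.024; Tob1 -0.69, edgeR adjusted p = 0.0498), and leaving out the single library pGal 3 of batch 1 gave the same pair of calls (edgeR adjusted p = 0.013 and 0.047). DESeq2 on all libraries called both (Btg2 -0.43, adjusted p = 0.023; Tob1 -0.54, adjusted p = 0.029). Tob1 also passed without pGal 1 of batch 2 (-0.78; edgeR adjusted p = 0.0093). Btg1 differed by -0.07, from -0.25 to 0.11 at 2 SE, and Foxo1 by 0.00 (-0.20 to 0.20). Cdkn1b averaged 80.9 ± 4.90 CPM after pGal and 93.6 ± 13.3 CPM after saline, and its interval ran from -0.48 to 0.07.

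A list of 12 early response genes holds genes that rise within minutes of stimulation or of cell handling. In prophylactic OT-II cells after pGal 2 of the 12 fell and 0 rose, beside 5.34% and 6.37% of all genes: Ier2 (280 ± 58.6 CPM after pGal and 601 ± 123 CPM after saline; log2 -1.11; edgeR adjusted p = 0.0019) and Junb (1445 ± 483 CPM after pGal and 3591 ± 951 CPM after saline; log2 -1.32; edgeR adjusted p = 0.012). The summed level of the list was 2700 to 11100 CPM after pGal and 4000 to 11100 CPM after OVA, against 8880 to 14200 CPM after saline, with overlap. In therapeutic OT-II cells it was 6270 to 24000 CPM after pGal and 4910 to 26200 CPM after OVA, against 22100 to 48000 CPM after saline, and 0 of its genes passed. In prophylactic OT-I cells it was 2700 to 6700 CPM after pGal and 2940 to 7130 CPM after OVA, against 4400 to 7080 CPM after saline, and in therapeutic OT-I cells 5420 to 15900 CPM after pGal and 4040 to 20800 CPM after OVA, against 14400 to 23600 CPM after saline; 0 of the 12 passed in OT-I cells of either experiment. The part of these genes, or of cell handling, in the lower Klf2 and Klf6 was not tested. Without the libraries that carried transcripts of other cells the Klf2 and Klf6 differences after pGal were -0.48 and -0.91 (edgeR adjusted p = 0.0033 and 0.0089).

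**Figure D2:**
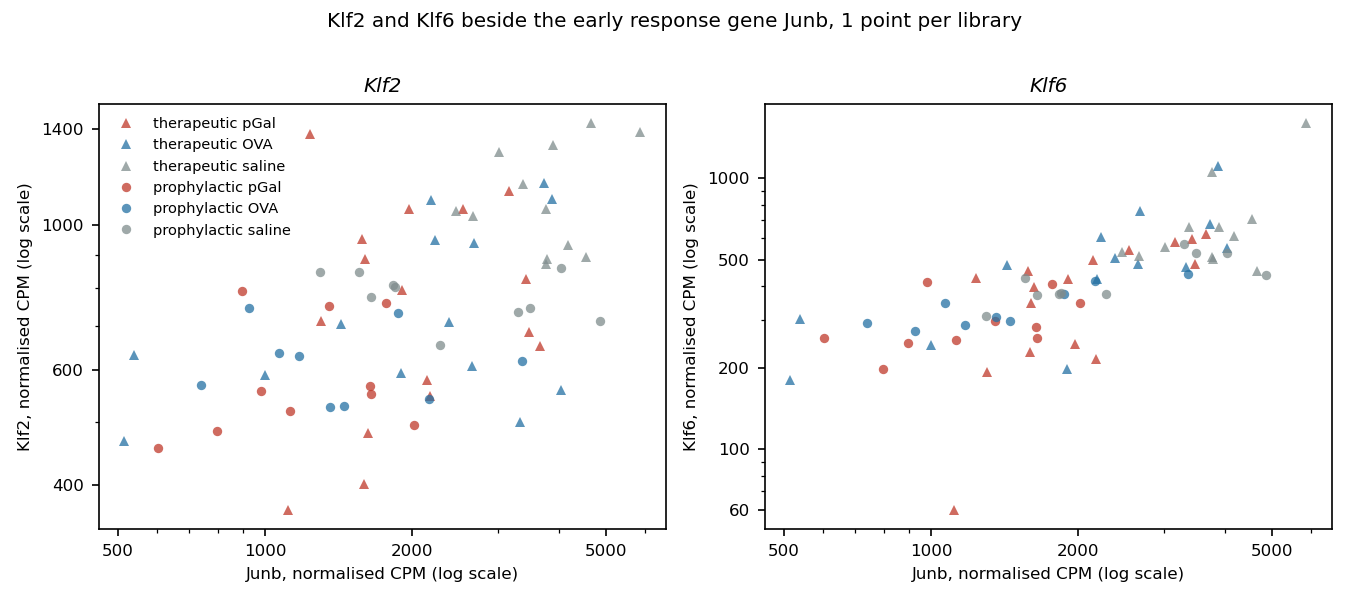
Klf2 (left) and Klf6 (right) in normalised CPM (y axes, log scale) beside Junb in normalised CPM (x axes, log scale), 1 point per library, triangles therapeutic and circles prophylactic, coloured by treatment. Cell types are not marked apart. In prophylactic OT-II cells the saline libraries lie toward higher Junb (3591 ± 951 CPM) than the pGal libraries. Across the 29 prophylactic libraries Klf6 and Junb had r = 0.88 once cell type and batch means were removed.

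After OVA in the same cells, 0 of the 8 genes passed, beside 0.163% of the 14128 genes called in either direction (0.156% higher and 0.00708% lower). At an unadjusted p under 0.05 there were 3 members and 1034 genes, and DESeq2 called 1 member, Klf2. Klf2 was at 619, 529.7, 542 and 527 CPM after OVA, all 4 below the 5 saline libraries (log2 -0.42 ± 0.098 SE; edgeR adjusted p = 0.18; DESeq2 adjusted p = 0.0041). Klf6 was at 443, 299, 419.6 and 309 CPM after OVA and overlapped saline (log2 -0.42; edgeR adjusted p = 0.62). The pGal and OVA comparisons share the same saline libraries.

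In prophylactic OT-I cells, 0 of the 8 genes passed after either antigen. The background was 3.35% of 13802 genes called after pGal (2.64% higher and 0.71% lower) and 5.39% after OVA (4.12% higher and 1.28% lower). At an unadjusted p under 0.05 there were 1 member and 2617 genes after pGal, and 1 member and 2750 genes after OVA. That member was Klf2, which DESeq2 called in both comparisons (adjusted p = 0.029 and 0.038). It was at 791, 753, 759, 558 and 457 CPM after pGal and at 734, 748, 630.0, 636 and 569 CPM after OVA, against 804, 849, 846, 808 and 776 CPM after saline. The 5 OVA libraries lay below every saline library, and so did 4 of the 5 pGal libraries. The log2 differences were -0.31 ± 0.099 (SE; edgeR adjusted p = 0.096) after pGal and -0.28 ± 0.098 (edgeR adjusted p = 0.11) after OVA. Whether the Klf2 difference after pGal itself differed between the cell types was tested by an interaction term, which was -0.21 on the log2 scale for OT-II minus OT-I (2 SE: -0.51 to 0.09; edgeR adjusted p = 0.64).

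**Figure D3:**
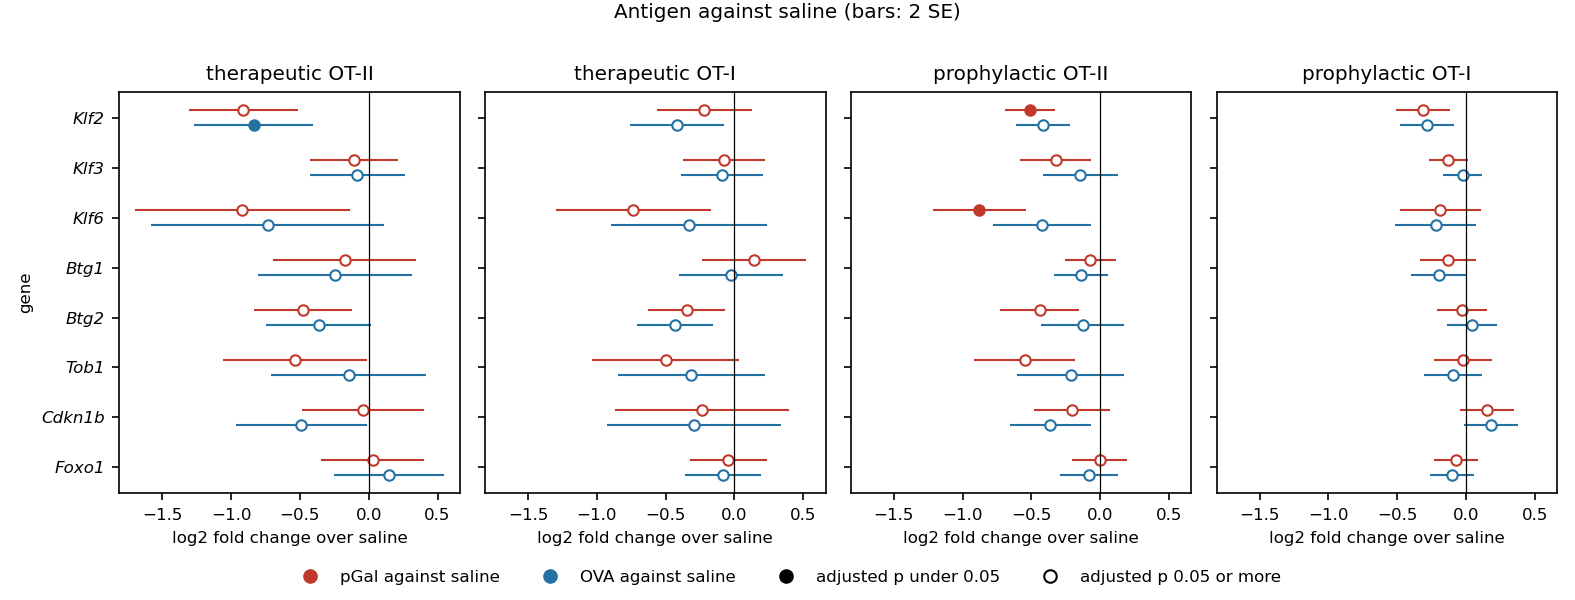
Log2 fold change over saline (x axis) of each gene (y axis) after pGal (red) and after OVA (blue), in 4 panels by experiment and cell type. Bars are 2 SE, and filled points passed an edgeR adjusted p under 0.05: Klf2 and Klf6 after pGal in prophylactic OT-II cells and Klf2 after OVA in therapeutic OT-II cells.

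In therapeutic OT-II cells, from mice already immunized, the Klf2 difference from saline passed after OVA and did not pass after pGal. Its unadjusted edgeR p was 0.00075 after OVA and 0.00013 after pGal. Between pGal and OVA the log2 difference was -0.07 (2 SE: -0.47 to 0.33). Klf2 ranged from 367 to 826 CPM with a median of 563 CPM in 8 pGal libraries and from 468 to 937 CPM with a median of 575 CPM in 6 OVA libraries, against 872 to 1429 CPM with a median of 914 CPM in 6 saline libraries. The pGal and saline libraries did not overlap, and 5 of 6 OVA libraries were below the lowest saline library, the exception being OVA 2. The highest Klf2 of each group was in OVA 2, pGal 2 and saline 7, which all held transcripts of other cells. After OVA the log2 difference was -0.84 ± 0.22 (SE; edgeR adjusted p = 0.0499), which made Klf2 the 1 member called lower beside 0.927% of 14244 genes, and 0 members were called higher beside 0.611%. After pGal it was -0.91 ± 0.20 (SE; edgeR adjusted p = 0.088), with 0 members called beside 0.00702% of genes (1 gene); 3 members and 1280 genes had an unadjusted p under 0.05, and DESeq2 called 1 member, Klf2 (adjusted p = 0.0022).

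After OVA, all 20 fits that left out 1 library kept the direction (log2 -0.99 to -0.72), but only 3 of them kept the call, those without OVA 2, pGal 9 or pGal 10 (edgeR adjusted p 0.024 to 0.14 over the 20). The call was also lost with the replicate number as a block (-0.86; edgeR adjusted p = 0.14), with no low-count filter (-0.83; edgeR adjusted p = 0.095) and without the libraries that carried transcripts of other cells (-0.88; edgeR adjusted p = 0.077). The block joins different mice across treatments, where same-numbered pairs had a median r of 0.04 and other pairs 0.05. With all libraries as labelled the Klf2 difference was -0.59 (edgeR adjusted p = 0.23). Klf6 ranged from 59.9 to 624.9 CPM after pGal (median 442) and from 181 to 756 CPM after OVA (median 477), against 457 to 1595 CPM after saline (median 562), with overlap. Library pGal 9 was the lowest after pGal in both Klf2 and Klf6. It had the lowest total of the therapeutic libraries (22.6 M counts) and the lowest Cd4 of the matching therapeutic OT-II libraries (239.8 CPM). The log2 differences of Klf6 were -0.92 (edgeR adjusted p = 0.49) and -0.73 (edgeR adjusted p = 0.41), and 1 saline library, replicate 4, stood far above the rest.

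In therapeutic OT-I cells 0 members passed after pGal (0.0% of 14581 genes called; 2 members and 886 genes at an unadjusted p under 0.05; DESeq2 0 members) and 0 after OVA (0.48% called; 2 members and 1834 genes unadjusted; DESeq2 0 members). Klf2 ranged from 714 to 1374 CPM after pGal and from 595 to 1160 CPM after OVA, against 1031 to 1325 CPM after saline. Klf6 averaged 403 ± 136 CPM after pGal (SD, n = 8) and 538 ± 277 CPM after OVA (n = 8), against 665 ± 199 CPM after saline (n = 6). Btg2 averaged 393 ± 70.3 CPM after pGal and 373 ± 53.2 CPM after OVA, against 499 ± 64.9 CPM after saline, with log2 differences of -0.35 (edgeR adjusted p = 0.77) and -0.43 (edgeR adjusted p = 0.18). The early response list had median log2 differences of -0.80 after pGal and -0.43 after OVA in these cells, against 0.04 and 0.08 over all genes, and its part in the levels of Klf6 and Btg2 was not tested. For Klf2 the interaction term of pGal against saline, OT-II minus OT-I, was -0.69 in the therapeutic experiment (2 SE: -1.23 to -0.15; unadjusted p = 0.014; edgeR adjusted p = 1).

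Over the 8 comparisons of antigen with saline, Klf2 had a log2 difference below 0 in every one, as did Klf3, Klf6 and Tob1. Foxo1 ranged from -0.10 after OVA in prophylactic OT-I cells to 0.15 after OVA in therapeutic OT-II cells, and passed in none. Cdkn1b ranged from -0.49 after OVA in therapeutic OT-II cells to 0.18 after OVA in prophylactic OT-I cells, and likewise passed in none. These comparisons share saline libraries in pairs, so the repeated sign is not independent.

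The comparison of pGal with OVA gave 0 members called in any of its 4 settings, with edgeR and with DESeq2. The background was 0.0% of genes called in prophylactic OT-I and in both therapeutic cell types, while 1.87% of the 14128 genes passed for prophylactic OT-II libraries (1.11% higher, 0.757% lower). Members with an unadjusted p under 0.05 numbered 0 in therapeutic OT-II cells, where 1013 genes had one, and 0 in therapeutic OT-I cells, where 374 did. They numbered 1 in prophylactic OT-II cells (2102 genes) and 0 in prophylactic OT-I cells (420 genes). The 1 member was Klf6, at 268 ± 54.4 CPM after pGal (SD, n = 5) and 368 ± 74.2 CPM after OVA (n = 4), a log2 difference of -0.46 (2 SE: -0.81 to -0.10; edgeR adjusted p = 0.23). For Klf2 the 2 SE interval was -0.28 to 0.10 in prophylactic OT-II cells, -0.23 to 0.17 in prophylactic OT-I cells, -0.47 to 0.33 in therapeutic OT-II cells and -0.12 to 0.52 in therapeutic OT-I cells. For Foxo1 these intervals were -0.13 to 0.29, -0.13 to 0.19, -0.49 to 0.25 and -0.22 to 0.30.

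Whether an effect differed between the cell types or between the experiments was tested by 12 interaction terms, and 0 of the 8 genes passed in any of them. The background, OT-II minus OT-I in the prophylactic experiment, was 1.17% of 14845 genes for pGal against saline (0.734% higher, 0.431% lower), 0.0337% for OVA against saline (0.00674% and 0.0269%) and 0.505% for pGal against OVA (0.35% and 0.155%). In the therapeutic experiment it was 0.0% of 15747 genes for pGal against saline and for pGal against OVA, and 0.121% for OVA against saline (0.0508% and 0.0699%). For therapeutic minus prophylactic in OT-II cells it was 0.8% of 15505 genes for pGal against saline (0.0645% and 0.735%), 0.0967% for OVA against saline (0.00645% and 0.0903%) and 0.232% for pGal against OVA (0.0645% and 0.168%). In OT-I cells it was 0.11% of 15428 genes for pGal against saline (all lower), 0.266% for OVA against saline (0.0194% and 0.246%) and 0.0% for pGal against OVA.

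The term of Klf6 for pGal against saline, OT-II minus OT-I, was -0.69 in the prophylactic experiment (2 SE: -1.14 to -0.23; unadjusted p = 0.0061; edgeR adjusted p = 0.18). Btg2 and Tob1 had -0.41 and -0.52 in the same term (edgeR adjusted p = 0.31 and 0.33). At an unadjusted p under 0.05 that term held 3 members and 1781 genes, the other terms held 0 or 1 member, and DESeq2 called 0 members in each of the 12. For Klf2, therapeutic minus prophylactic in OT-II cells was -0.41 for OVA against saline (2 SE: -0.96 to 0.13; edgeR adjusted p = 0.75).

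The second question was how the genes stood in OT-II against OT-I cells of recipients given saline. In the therapeutic experiment these recipients had earlier been immunized with ovalbumin. In the prophylactic saline libraries, Btg2, Cdkn1b, Btg1 and Foxo1 were higher in OT-II cells. These 4 of 8 genes were called higher and 0 lower, beside 8.12% of 14845 genes called higher and 10.0% lower (18.1% either way), and the median log2 difference of the 8 was 0.38 against 0.02 over all genes. Each of the 4 passed in all 10 fits that left out a saline library. OT-II and OT-I libraries can come from the same recipients, and the 4 also passed with the replicate number as a block.

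Btg2 was at 522, 509.6, 513, 622 and 479 CPM in OT-II cells, against 262, 291, 253, 342 and 276 CPM in OT-I cells, with no overlap (log2 0.90 ± 0.12 SE; edgeR adjusted p = 2.9e-06). Btg1, the closest relative of Btg2, was at 2219, 2105, 2171, 1890 and 1696 CPM in OT-II cells, against 1578, 1399, 1566, 1321 and 1205 CPM in OT-I cells, also without overlap (log2 0.52 ± 0.096 SE; edgeR adjusted p = 0.00029). Cdkn1b was at 97.5, 99.5, 105, 94.95 and 70.8 CPM in OT-II cells, against 62.1, 58.7, 51.2, 39.7 and 43.4 CPM in OT-I cells (log2 0.89 ± 0.12 SE; edgeR adjusted p = 8.4e-06). The lowest OT-II library of Cdkn1b was above the highest OT-I library.

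Foxo1 was at 606, 533, 624, 517 and 439.6 CPM in OT-II cells, against 450.3, 424, 459, 381 and 408 CPM in OT-I cells (log2 0.36 ± 0.092 SE; edgeR adjusted p = 0.0065), and 4 of 5 OT-II libraries were above every OT-I library. Klf6 averaged 489.9 ± 81.4 CPM in OT-II and 373 ± 42.6 CPM in OT-I cells (log2 0.40; edgeR adjusted p = 0.089), and passed without OT-II saline 2 of batch 2 (0.49; edgeR adjusted p = 0.042) and with the replicate number as a block (0.39; edgeR adjusted p = 0.031). Klf2 averaged 742 ± 74.5 CPM in OT-II and 817 ± 30.8 CPM in OT-I cells and did not pass (log2 -0.13; 2 SE: -0.34 to 0.08). Klf3 and Tob1 differed by 0.03 and -0.02.

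Early response genes differed by cell type as well. Of 12, 6 were called higher in the OT-II saline libraries and 0 lower, beside 8.12% and 10.0% of all genes, Nr4a1 among them (log2 1.31; edgeR adjusted p = 0.00016). Their summed level was 8880 to 14200 CPM in OT-II and 4400 to 7080 CPM in OT-I saline libraries. Their part in the differences of Btg2, Btg1, Cdkn1b and Foxo1 was not tested. B cell markers summed to 186 to 1960 CPM in OT-II and 170 to 4450 CPM in OT-I saline libraries, and the 4 calls held without the libraries that carried them.

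In the therapeutic saline libraries 0 members were called between OT-II and OT-I cells, beside 4.59% of 15747 genes called higher and 4.42% lower. Members with an unadjusted p under 0.05 numbered 2, against 3220 genes, and DESeq2 called 0. Btg2 averaged 489 ± 124 CPM in OT-II and 499 ± 64.9 CPM in OT-I cells (SD, n = 6 each). Cdkn1b averaged 73.8 ± 16.9 CPM in OT-II and 54.3 ± 16.9 CPM in OT-I cells, a log2 difference of 0.43 (2 SE: -0.18 to 1.04), and Btg1 had 0.49 (2 SE: -0.02 to 1.00). Whether the cell type difference itself differed between the experiments was not tested.

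**Figure D4:**
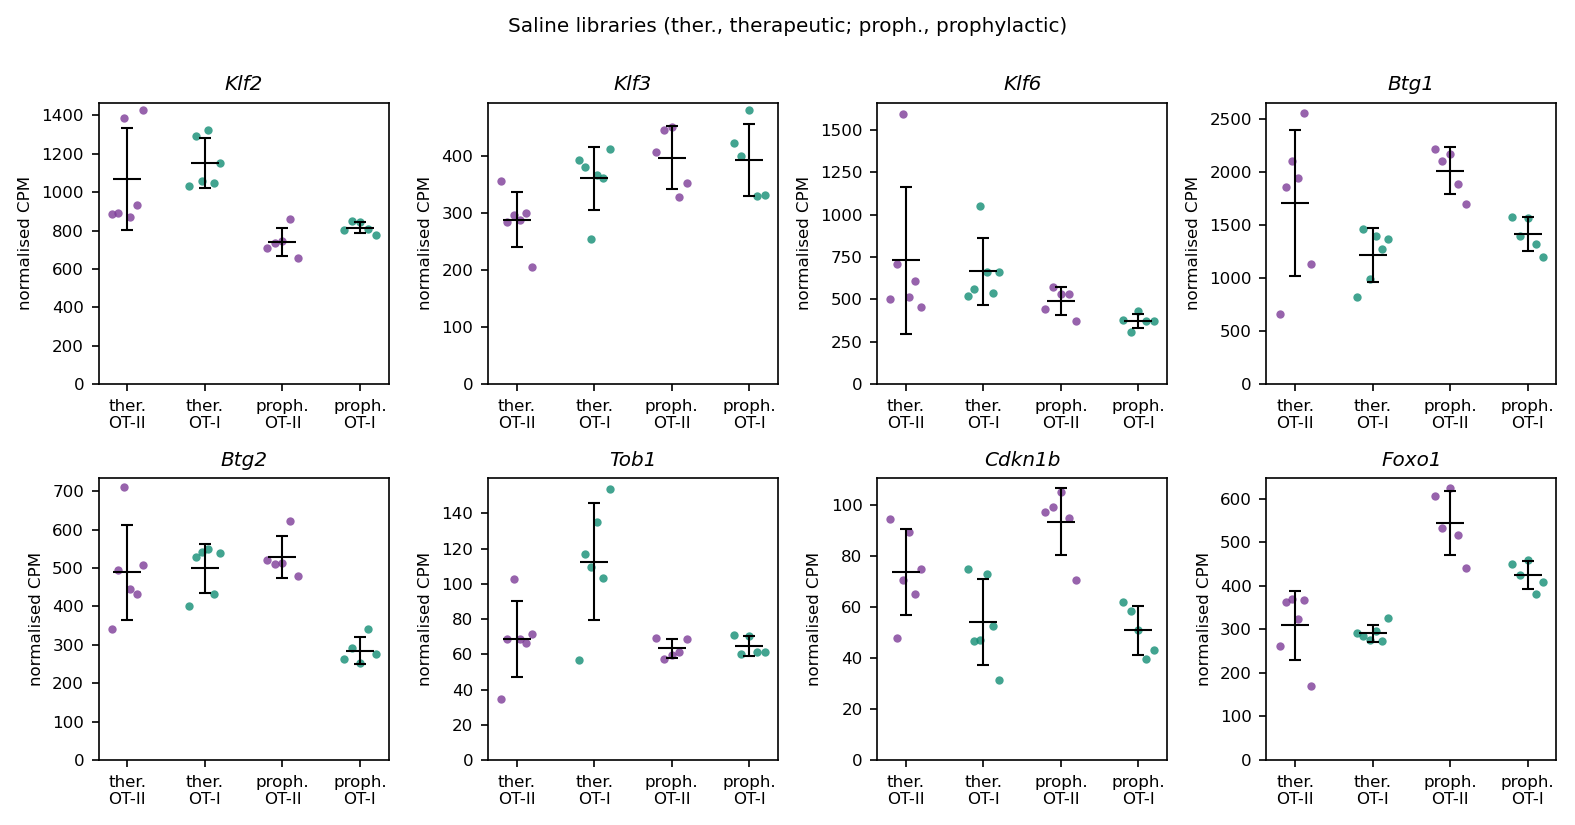
Level of each gene in normalised CPM (y axis, linear) in the saline libraries, by experiment and cell type (x axis); points are libraries and bars are the mean and SD. Btg2 lies at 479 to 622 CPM in prophylactic OT-II and 253 to 342 CPM in prophylactic OT-I libraries, and Foxo1 is lower in both therapeutic groups than in their prophylactic counterparts.

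The saline groups also allow the immunized mice of the therapeutic experiment to be set beside the mice of the prophylactic one. Each of these fits used 1 estimate of the spread per gene for libraries of single mice and of pools. The 2 kinds could differ in spread, with Klf2 SDs of 129.7 and 30.8 CPM in OT-I cells, so the SE describes neither alone. Foxo1 was lower in therapeutic cells of both types. In OT-II cells it ranged from 169 to 369.9 CPM (n = 6) in therapeutic and from 439.6 to 624 CPM (n = 5) in prophylactic libraries, without overlap (log2 -0.78 ± 0.18 SE; edgeR adjusted p = 0.0032). In OT-I cells it ranged from 273 to 327 CPM in therapeutic and from 381 to 459 CPM in prophylactic libraries, again without overlap (log2 -0.49 ± 0.13 SE; edgeR adjusted p = 0.0076). These calls held in every fit tried, those with all libraries as labelled included.

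Klf2 stood higher in therapeutic cells. In OT-II cells it ranged from 872 to 1429 CPM in therapeutic and from 656 to 859.8 CPM in prophylactic libraries (log2 0.53 ± 0.19 SE; edgeR adjusted p = 0.049). In OT-I cells it ranged from 1031 to 1325 CPM in therapeutic and from 776 to 849 CPM in prophylactic libraries (log2 0.54 ± 0.17 SE; edgeR adjusted p = 0.018). Neither pair of groups overlapped. The Klf2 calls were lost with all libraries as labelled (edgeR adjusted p = 0.13 in OT-II and 0.12 in OT-I cells) and without the libraries that carried transcripts of other cells (0.087 and 0.051).

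Left out singly, therapeutic saline 4 or 7 or any of the 5 prophylactic saline libraries ended the OT-II call of Klf2 (edgeR adjusted p up to 0.13), and any of the 3 saline libraries of batch 1 ended the OT-I call (up to 0.061). Klf2 kept its sign in every fit.

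In OT-I cells Btg2, Tob1 and Klf6 were also called higher in the therapeutic experiment. In all, 4 members were higher and 1 lower in OT-I cells, beside 11.5% of 15428 genes higher and 10.0% lower, and 1 higher and 1 lower in OT-II cells, beside 10.2% of 15505 genes higher and 6.35% lower. Btg2 ranged from 401 to 550.1 CPM in therapeutic and from 253 to 342 CPM in prophylactic OT-I libraries (log2 0.82 ± 0.14 SE; edgeR adjusted p = 2.4e-05), a call that held in every fit. Tob1 averaged 113 ± 33.1 CPM in therapeutic and 64.7 ± 5.45 CPM in prophylactic OT-I libraries (log2 0.83; edgeR adjusted p = 0.024). Klf6 averaged 665 ± 199 CPM in therapeutic and 373 ± 42.6 CPM in prophylactic OT-I libraries (log2 0.85; edgeR adjusted p = 0.030), and the Klf6 call was lost without therapeutic saline 4 (0.67; edgeR adjusted p = 0.097). The Klf6 call was also lost without saline 1 or 2 of batch 1 or either saline library of batch 2. The Tob1 call was lost without therapeutic saline 8, saline 2 of batch 1 or either saline library of batch 2 (edgeR adjusted p up to 0.061 for Tob1 and 0.097 for Klf6). Without the libraries that carried transcripts of other cells neither passed (edgeR adjusted p = 0.079 for Tob1 and 0.104 for Klf6), and with all libraries as labelled Tob1 did not (0.088).

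Early response genes differed between these libraries too. Of 12 such genes, 6 were called higher in therapeutic OT-II and 9 in therapeutic OT-I saline libraries, beside 10.2% and 11.5% of all genes, and 0 lower in either, beside 6.35% and 10.0%. Their summed level was 22100 to 48000 CPM in therapeutic and 8880 to 14200 CPM in prophylactic OT-II saline libraries, and 14400 to 23600 CPM in therapeutic and 4400 to 7080 CPM in prophylactic OT-I saline libraries. Fosb, a component of AP-1, had log2 differences of 3.35 in OT-II (edgeR adjusted p = 0.0074) and 3.30 in OT-I cells (edgeR adjusted p = 9.9e-05). Their part in the higher Klf2, Klf6, Btg2 and Tob1 was not tested. The immunization, the freezing of sorted cells and the pooling of mice all follow the experiment, and cannot be told apart.

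Genes of the same pathways were counted from lists. Of 6 genes that KLF2 or FOXO1 is known to drive, 2 fell and 0 rose in prophylactic OT-II cells after pGal, beside 5.34% and 6.37% of all genes: Il7r, the receptor chain for interleukin 7 (101 ± 27.6 CPM after pGal and 259 ± 17.2 CPM after saline; log2 -1.40; edgeR adjusted p = 3.0e-05), and S1pr1, the receptor that lets T cells leave lymph nodes (624 ± 70.4 CPM after pGal and 933 ± 91.2 CPM after saline; log2 -0.58; edgeR adjusted p = 0.0016). The list's median was -0.18, against 0.04 over all genes. Il7r was also the 1 gene of the list that was lower after pGal than after OVA in these cells (log2 -0.92; edgeR adjusted p = 0.0064; 0.757% of all genes lower), and the 1 that was lower after OVA than after saline in therapeutic OT-II (-1.52; edgeR adjusted p = 0.0077) and OT-I cells (-1.70; edgeR adjusted p = 0.0017), beside 0.927% and 0.295% of all genes.

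In the therapeutic against prophylactic saline libraries the same 6 genes gave 0 higher and 2 lower in OT-II and 1 higher and 4 lower in OT-I cells. The shares over all genes were 10.2% higher and 6.35% lower in OT-II and 11.5% higher and 10.0% lower in OT-I cells. Ccr7, the receptor for entry into lymph nodes, averaged 515 ± 193 CPM in therapeutic and 1030 ± 195 CPM in prophylactic OT-II cells (log2 -0.96; edgeR adjusted p = 0.040), and 184 ± 29.6 CPM in therapeutic and 975 ± 103 CPM in prophylactic OT-I cells (log2 -2.39; edgeR adjusted p = 3.4e-09). Tcf7, a factor of naive and memory T cells, fell in OT-I cells (log2 -1.15; edgeR adjusted p = 7.6e-05). Il7r was the 1 gene higher (log2 0.80; edgeR adjusted p = 0.027). Between these same libraries Klf2 itself was higher and Foxo1 lower, as given above.

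Among 12 relatives of the 8 genes, 1 rose and 3 fell in prophylactic OT-II cells after pGal, beside 6.37% and 5.34% of all genes. Btg3, of the BTG family, and Klf12 and Klf7 fell (log2 -0.70, -0.87 and -0.80; edgeR adjusted p = 0.0054, 0.011 and 0.020), while Cdkn2c, which encodes the CDK4 and CDK6 inhibitor p18, rose (log2 1.65; edgeR adjusted p = 0.0028). Btg3 was also lower after OVA in therapeutic OT-II cells (log2 -1.30; edgeR adjusted p = 0.0047), the 1 of 12 called there, beside 0.927% of all genes lower. In the therapeutic against prophylactic saline libraries, 2 relatives were higher in OT-II and 5 in OT-I cells, beside 10.2% and 11.5% of all genes, and 0 were lower, beside 6.35% and 10.0%. Cdkn2c and Klf4 were higher in both (Klf4 log2 3.04 and 3.09; edgeR adjusted p = 0.0039 and 0.0012).

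Of 14 other quiescence genes, 0 rose and 2 fell in prophylactic OT-II cells after pGal, beside 6.37% and 5.34% of all genes: Tsc22d3, a glucocorticoid-induced factor known as GILZ (log2 -0.86; edgeR adjusted p = 0.0067), and Peli1, a ubiquitin ligase (-0.53; edgeR adjusted p = 0.028). Peli1 was also the 1 called, and lower, in prophylactic OT-I cells after pGal (-0.37; edgeR adjusted p = 0.0485) and after OVA (-0.40; edgeR adjusted p = 0.026), beside 0.71% and 1.28% of all genes called lower. In prophylactic saline libraries 4 of the 14 were higher in OT-II than in OT-I cells and 0 lower, beside 8.12% and 10.0% of all genes, led by Runx1 (log2 1.40; edgeR adjusted p = 4.0e-07) and Slfn2, whose loss breaks T cell quiescence in mice (0.83; edgeR adjusted p = 8.1e-06). In the therapeutic against prophylactic saline libraries, 0 were higher and 6 lower in OT-II cells, beside 10.2% and 6.35% of all genes, and 1 higher and 3 lower in OT-I cells, beside 11.5% and 10.0%. Bach2, a repressor of effector genes, was among the lower ones in both (log2 -1.43 and -1.35; edgeR adjusted p = 0.0044 and 0.00024).

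Of 12 subunits and partners of the CCR4-NOT deadenylase, on which BTG and TOB proteins act, 3 were higher and 1 lower in prophylactic OT-II cells after pGal, beside the 6.37% and 5.34% of all genes. They were the poly(A)-binding protein gene Pabpc1 (log2 0.52; edgeR adjusted p = 0.040) and the deadenylase genes Cnot6l and Cnot6 (0.47 and 0.36; edgeR adjusted p = 0.047 and 0.048) as higher, and Cnot8 (-0.27; edgeR adjusted p = 0.038) as lower.

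Some genes of entry into the cell cycle rose after antigen in the prophylactic experiment. Of 13 cyclins, kinases and partners, 3 rose and 0 fell in OT-II cells after pGal, beside 6.37% and 5.34% of all genes, and 0 passed after OVA, where 0.163% of all genes were called either way. In OT-I cells 3 rose after pGal and 5 after OVA, beside 2.64% and 4.12%, and 0 fell, beside 0.71% and 1.28%. Mki67, a marker of cycling cells, averaged 22.7 ± 17.2 CPM after pGal and 4.38 ± 3.15 CPM after saline in OT-II cells (log2 2.43; edgeR adjusted p = 0.0047). In OT-I cells it averaged 40.6 ± 31.9 CPM after pGal and 50.1 ± 15.8 CPM after OVA, against 11.4 ± 8.03 CPM after saline (log2 1.73 and 2.44; edgeR adjusted p = 0.018 and 0.0017). In the therapeutic experiment 0 of the 13 passed in any comparison of antigen with saline, where at most 1.54% of all genes were called. Of these 13 genes, 7 were lower and 1 higher in prophylactic OT-II than OT-I saline cells, beside 10.0% and 8.12% of all genes. In therapeutic saline cells, where 0 of the 8 quiescence genes were called, 5 were lower and 0 higher, beside 4.42% and 4.59%.

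Across the 29 prophylactic libraries, with the mean of each cell type and batch removed, the genes most like each member were ranked by Pearson's r of log2 CPM among 8573 genes. The libraries share batches and treatments, so the values are descriptions. Nearest to Klf6 were Ppp1r15a (r = 0.92), Junb (0.88) and Arl4a (0.86), and nearest to Klf2 were Cltb (0.86), Ier2 (0.86) and Epc1 (0.85). Ier2 was also among the nearest to Btg2 (0.79), after Hist3h2a (0.84) and Uqcc1 (0.80). Tob1 was nearest to Ifrd1 (0.87), Klf3 to Otulinl (0.92), Btg1 to Ccdc9 (0.79), Cdkn1b to Aes (0.79) and Foxo1 to Galnt6 (0.87). Among the 8 genes themselves, the closest pairs were Klf6 with Tob1 (0.74) and Klf2 with Klf6 (0.70), and the least alike were Btg2 with Foxo1 (-0.04; 29 libraries).

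Over the 12 groups, mean levels spanned 2.73-fold for Klf6, 2.59-fold for Tob1, 2.20-fold for Klf2, 2.11-fold for Cdkn1b, 1.96-fold for Foxo1, 1.92-fold for Btg2, 1.67-fold for Btg1 and 1.48-fold for Klf3. Klf2, Klf6 and Tob1 were all lowest in prophylactic OT-II cells after pGal (523, 268 and 43.4 CPM). The highest mean was in therapeutic OT-I saline libraries for Klf2 and Tob1 (1152 and 113 CPM) and in therapeutic OT-II saline libraries for Klf6 (732 CPM). Klf3, Btg1, Btg2, Cdkn1b and Foxo1 were highest in prophylactic OT-II saline libraries. In these orders a gap between neighbours exceeded the SD of both in 1 place for Klf2, below prophylactic OT-I saline (817 CPM), and in 1 place for Btg2, below prophylactic OT-II OVA (487 CPM), and in 0 places for the other 6 genes.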

How the data were processed

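Per the submitters' processing notes, reads were handled with bcl2fastq and kallisto 0.46.1 on GRCm38. The deposited values are estimated counts per protein-coding gene, whole numbers as deposited; no source used here says how transcripts were summed to genes. Per the labels, libraries were made with the SmartSeq v4 protocol and Nextera.

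Counts were filtered (filterByExpr), scaled by TMM and tested with edgeR 4.0.16 (robust quasi-likelihood F test; R 4.3.3), per experiment and cell type with a batch term in the prophylactic fits, and in joint fits for differences between cell types, experiments and their interactions. Calls used a Benjamini-Hochberg adjusted p under 0.05. DESeq2 1.42.0 was an alternative. Fits were tested on simulated pGal against saline data for each experiment and cell type. Of 1.5-fold changes 2.99 to 28.4% were recovered, of 2-fold changes 28.4 to 59.7%, and of 4-fold changes 56.1 to 68.2%. A gene that did not pass can therefore still have changed. Each fit held 67, 67 and 66 genes changed by these folds, in that order, among 13802 to 14581 genes. Recovery was not measured separately for the quiescence genes at their own levels and spread, so these shares are not theirs. CPM were scaled by TMM over 82 libraries. A library was set apart as holding transcripts of other cells at 100 CPM or more of Cd79a, or of Cd4 in OT-I cells. Intervals are 2 SE. Estimated counts carry the error of read assignment between similar transcripts, which was not measured here.

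The members, lists and tests were chosen with earlier results of these data known. Named from each list were up to 4 called genes per comparison by smallest adjusted p, and Il7r, S1pr1 and Mki67; 1 gene of the lists is not reported here. Per the labels, each library of a cell type is 1 mouse or 1 pool, while OT-II and OT-I libraries can come from the same recipients. The labels do not say whether replicates were sorted separately, so part of the spread may be technical. No 2 columns were identical. Replicate numbers were not taken as pairs.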

Additional observations from a re-analysis of the deposited data

Results flagged for a closer look

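Of 96 groups of libraries tested for 1 value far from the rest (8 genes in 12 groups), 7 held one. Chance alone flags about 1 in 20 such groups.

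In the saline groups, Klf6 reached 1595 CPM in therapeutic OT-II saline 4 (n = 6) and 1051 CPM in therapeutic OT-I saline 4 (next 663 CPM), and that OT-I library also had the lowest Klf3, 254.8 CPM (next 361 CPM). Klf2 was at 937 CPM in therapeutic OT-II OVA 2 (next of 6, 609.6 CPM) and at 619 CPM in the prophylactic OT-II library OVA 2 of batch 1 (next of 4, 542 CPM). Btg1 was at 1996 CPM in therapeutic OT-I pGal 1 (next of 8, 1466 CPM), and Cdkn1b at 129.6 CPM in therapeutic OT-II pGal 6 (next of 8, 84.3 CPM).

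Over the 12 interaction terms, 4 genes of the pathway lists passed in edgeR, in terms that called 0.232 to 1.17% of all genes. Alternative fits are not given for these genes. Il7r after pGal against OVA differed by -1.01 for OT-II minus OT-I in the prophylactic experiment (edgeR adjusted p = 0.0497), and by 1.52 for therapeutic minus prophylactic in OT-II cells (edgeR adjusted p = 0.049). After pGal against saline, Klf12 differed by -1.03 for OT-II minus OT-I in the prophylactic experiment (edgeR adjusted p = 0.018). For therapeutic minus prophylactic OT-II cells, Mki67 differed by -2.51 and Cks1b by -1.52 in the same contrast (edgeR adjusted p = 0.0375 and 0.044).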

How the results depend on the processing

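For single genes, 2103 values under alternatives kept the side of the threshold, 49 lost a call, 16 gained one and none reversed a called sign. Most of the 2103 were called in neither fit, so that total does not measure how often a call was kept. Of the antigen calls, Klf2 and Klf6 after pGal in prophylactic OT-II cells each held in 14 of 14 leave-one-out fits and 6 of 7 others. Klf2 after OVA in therapeutic OT-II cells held in 3 of 20 and 2 of 6. The direction was not compared where neither fit made a call. DESeq2 called 1 member in each of prophylactic OT-I pGal against saline, prophylactic OT-I OVA against saline, prophylactic OT-II OVA against saline and therapeutic OT-II pGal against saline, and 4 in prophylactic OT-II pGal against saline. There, 4 passed without libraries holding other cells' transcripts, 0 in batch 2 alone, and 2 to 4 with 1 library left out (4 without pGal 3 of batch 1). In prophylactic OT-I OVA against saline, 0 to 1 passed with 1 library left out (1 without pGal 2 of batch 2). In therapeutic OT-II OVA against saline the count was 0 with no low-count filter, 0 with the replicate block, 0 without other cells' transcripts, 0 with all libraries as labelled, and 0 to 1 with 1 library left out. Between experiments in saline, the count was 3 as labelled, 2 without other cells' transcripts and 2 to 5 with 1 library left out in OT-I cells, and 1, 1 and 1 to 2 in OT-II cells. Leaving out 1 library in the therapeutic fits and across experiments, and dropping other cells' transcripts from saline and interaction comparisons, were chosen after seeing the data. Matching therapeutic OT-I libraries held none with such transcripts, so no fit was made there.

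Replicate numbers were not taken as pairs, since the labels do not say that a number marks the same mice. Across cell types, same-numbered libraries of 1 treatment correlated over 0.1 in 17 of 19 therapeutic and 10 of 14 prophylactic pairs, and 20 of 38 and 20 of 28 libraries correlated best with their own number. Across treatments it was 5 of 13 and 6 of 15 pairs in therapeutic and 3 of 13 and 3 of 15 in prophylactic OT-II and OT-I cells. With the replicate block, Klf6 also passed as higher in OT-II than OT-I prophylactic saline cells (log2 0.39; edgeR adjusted p = 0.031) and Klf2 was lost in therapeutic OT-II OVA against saline (-0.86; edgeR adjusted p = 0.14).

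Over all genes, counts of calls moved by more than 1.5 times in these cases. After pGal against saline, prophylactic OT-II cells gave 1655 genes with edgeR, 2490 with DESeq2 and 0 in batch 2 alone, and therapeutic OT-II cells gave 1 with edgeR and 169 with DESeq2. Prophylactic OT-I cells gave 463 after pGal and 744 after OVA with edgeR, 1153 and 1356 with DESeq2, 60 and 312 without libraries holding other cells' transcripts, and 242 and 494 with the replicate block. After OVA against saline, prophylactic OT-II cells gave 23 with edgeR, 146 with DESeq2 and 0 with the replicate block. Therapeutic OT-II cells after OVA gave 219 with edgeR, 728 with DESeq2, 127 with no low-count filter, 87 without other cells' transcripts, 65 with the block and 69 as labelled, and therapeutic OT-I cells gave 70, against 365 with DESeq2, 13 with the block and 26 as labelled. For pGal against OVA in prophylactic OT-II cells it was 264 with edgeR, 914 with DESeq2, 592 without other cells' transcripts, 49 with the block and 0 in batch 2 alone. OT-II against OT-I therapeutic saline libraries gave 1418 and, with all libraries as labelled, 0.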
